A study of Caenorhabditis elegans with 18 samples.

Results

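The spe genes of Caenorhabditis elegans were named for mutants whose sperm are defective. The set described here holds every row of the deposited gene tables whose gene name is spe- followed by a number, which gave 34 of 45461 rows. The rule used names and no measured value. All 34 genes passed the filter on low counts and were among the 16770 genes tested.

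Whole-animal RNA was sequenced after poly(A) selection in animals carrying hira-1(gk835598), written hira-1(-), and in the wild-type strain N2. HIRA is a histone chaperone that places the histone variant H3.3 outside DNA replication. The groups were hira-1(-) L4 larvae, N2 L4 larvae, hira-1(-) adults and N2 adults, with 2 libraries each. All animals were kept at 20°C on plates with Escherichia coli OP50, and no group had another allele or a treatment in the labels. The series also holds L1 larvae and replicates numbered 3, which were not analysed here. The design text calls the mutants null, but the labels do not give what hira-1(gk835598) changes in the transcript, how tightly animals were staged, or whether a replicate was a culture of its own. The p-values therefore measure only the spread between these libraries, which may be technical. A difference in age within a stage and an effect of the allele cannot be told apart.

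In the hermaphrodite, germ cells form sperm during late larval life and then switch to oocytes for the rest of adulthood. Spermatocytes load the proteins that sperm will need into organelles and fibrous bodies before the meiotic divisions, and sperm themselves do not transcribe their genes. Spermatids later activate into crawling cells without new transcripts, and surface or secreted sperm proteins then act at fertilization. The spe genes cover each of these steps.

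The libraries held 26010300 to 31174600 estimated counts. The hira-1 transcript had 23.7 and 25.3 CPM in hira-1(-) L4 larvae, against 37.4 and 32.9 CPM in N2 L4 larvae. In adults it had 40.7 and 40 CPM in hira-1(-), against 108 and 109 CPM in N2. CPM is the estimated count scaled to library size, with TMM factors. The transcript was lower in hira-1(-) at L4 (log2 ratio -0.52, adjusted p = 3.3e-05) and in adults (log2 ratio -1.43, adjusted p = 2.0e-09), by edgeR's quasi-likelihood test with Benjamini-Hochberg adjustment over all genes tested. A gene is called higher or lower below where that adjusted p was under 0.05. A log2 ratio is the fitted log2 fold change of hira-1(-) over N2 unless another comparison is named.

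By the annotation of assembly WBcel235, 13 of the 34 spe genes lie on chromosome I, 2 on II, 3 on III, 11 on IV, 5 on V and 0 on X, while 13.9% of the 16458 tested genes with a chromosome lie on X. Their longest coding sequences run from 66 codons in spe-29 to 1219 codons in spe-15, with a median of 369. For 12 of them another annotated gene overlaps an exon. Whether the authors counted by strand is not given here, so reads of such neighbours may be mixed.

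Levels were compared between genes as FPKM, which is per length of transcript. In N2 L4 larvae spe-18, which encodes a protein of the fibrous bodies, stood first at 83.3 ± 9.72 FPKM (SD, n = 2 here and at each mean below). The next genes were spe-11 at 28.6 ± 4.12 FPKM, spe-4 at 28.5 ± 0.502 FPKM, spe-46 at 24.2 ± 0.0778 FPKM and spe-6 at 23.7 ± 0.304 FPKM. The libraries of spe-11 overlapped those of spe-4, and spe-46 and spe-6 lay less than 1 FPKM apart. The lowest were spe-51 at 0.67 ± 0.0424 FPKM and spe-36 at 0.455 ± 0.0354 FPKM, both secreted proteins that act at fertilization. In hira-1(-) L4 larvae the median spe gene stood at 10.6 FPKM and in N2 L4 larvae at 8.79 FPKM. The medians were 2.03 FPKM in hira-1(-) adults and 2.45 FPKM in N2 adults.

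**Figure D1:**
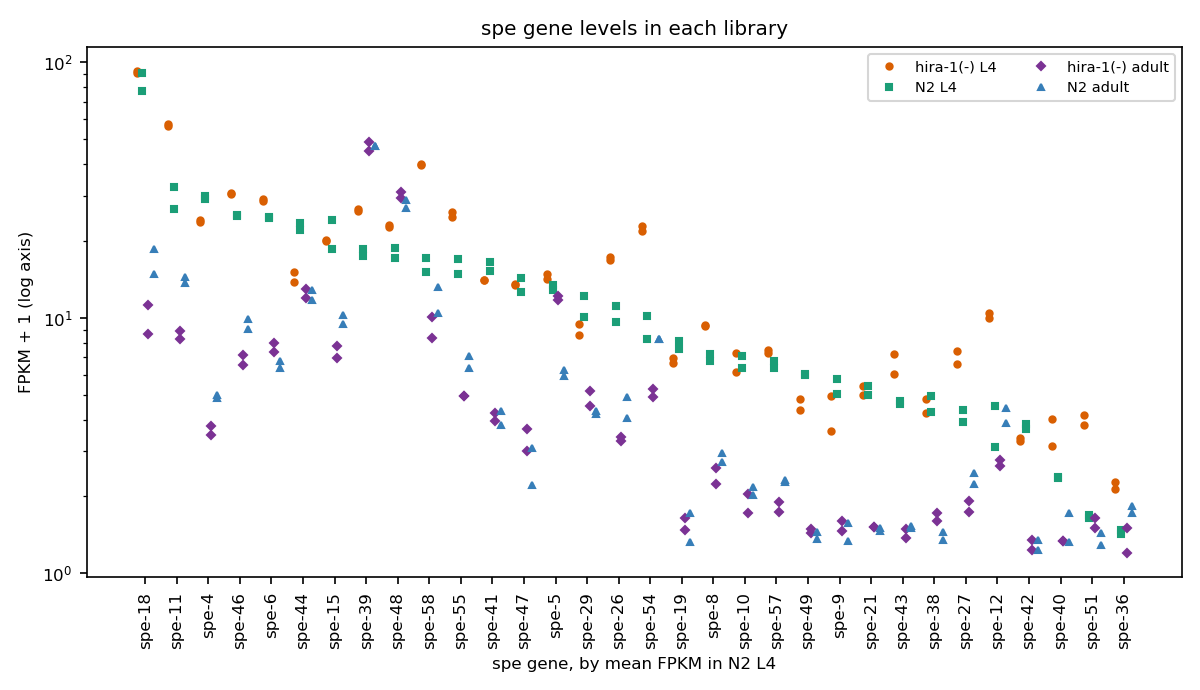
Level of 32 of the 34 spe genes in each library, as FPKM plus 1 on a log axis, for hira-1(-) L4, N2 L4, hira-1(-) adult and N2 adult (2 points per group). Genes run along the axis by their mean in N2 L4, from spe-18 at 83.3 FPKM to spe-36 at 0.455 FPKM. The adult points of spe-39 and spe-48 lie above their L4 points in both genotypes.

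In adults the order was different. The highest spe gene of N2 adults was spe-39 at 45.9 ± 0.0778 FPKM, followed by spe-48 at 27 ± 1.48 FPKM and spe-18 at 15.7 ± 2.57 FPKM. In hira-1(-) adults spe-39 stood at 46 ± 2.68 FPKM, spe-48 at 29.2 ± 1.18 FPKM and spe-44 at 11.4 ± 0.785 FPKM. spe-39 encodes a vesicle-trafficking protein that acts with VPS33B-type tethering complexes and is used in many tissues. Under 1 FPKM lay 14 spe genes in hira-1(-) adults and 11 in N2 adults, and 11 spe genes had fewer than 30 estimated counts in every adult library. Differences of those genes between adult groups were measured with little depth.

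Most spe genes were lower in adults than at L4. In hira-1(-), 31 of 34 were called lower in adults and 2 higher, where 38.4% of all tested genes were called lower and 36% higher (74.4% in either direction). In N2, 28 were called lower in adults and 3 higher, where 43.4% of all tested genes were called lower and 38.2% higher (81.6% in either direction). In whole animals, fewer cells of a type and less RNA per cell cannot be told apart. The median spe gene differed between adult and L4 by -2.49 (log2) in hira-1(-), against -0.08 over all genes tested. In N2 it differed by -1.51, against -0.15 over all genes tested. The libraries of adults lay wholly below those of L4 for 32 spe genes in hira-1(-) (46.5% of all genes did so) and for 29 in N2 (48.2%). They lay wholly above for 2 in hira-1(-) (41.6% of all genes) and for 3 in N2 (41.3%).

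The spe genes with the steepest stage difference in N2 were spe-19 (adult over L4, log2 ratio -3.54, SE 0.26) and spe-49 (-3.44, SE 0.18). Without N2 adult replicate 1 the value of spe-19 was -4.24. spe-19 encodes a membrane protein of sperm activation, and spe-49 encodes one that acts at fertilization. In hira-1(-) they were spe-43 (-3.59, SE 0.28), spe-19 (-3.27, SE 0.26) and spe-18 (-3.26, SE 0.17). spe-39 and spe-48 were higher in adults in both genotypes, spe-39 by 0.95 in hira-1(-) and 1.59 in N2, and spe-48 by 0.51 in hira-1(-) and 0.83 in N2. Also called higher in N2 adults was spe-36 (0.93, adjusted p = 0.0351). Its call was lost without N2 L4 replicate 1 (adjusted p = 0.159), N2 L4 replicate 2 (0.0732), hira-1(-) L4 replicate 1 (0.0502), N2 adult replicate 1 (0.154) or N2 adult replicate 2 (0.0608). The stage call of spe-51 in N2 (adjusted p = 0.049) was lost without any 1 library other than N2 adult replicate 1, with adjusted p from 0.051 without N2 L4 replicate 2 to 0.302 without N2 adult replicate 2. The stage call of spe-5 in hira-1(-) (adjusted p = 0.0491) was lost without hira-1(-) L4 replicate 1 (0.0941), L4 replicate 2 (0.198), adult replicate 1 (0.107) or adult replicate 2 (0.173). Without N2 adult replicate 2 the N2 value of spe-40 was -1.88, against -1.19 with all libraries. In hira-1(-), spe-36 was at -2.52 without adult replicate 1, against -1.67.

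**Figure D2:**
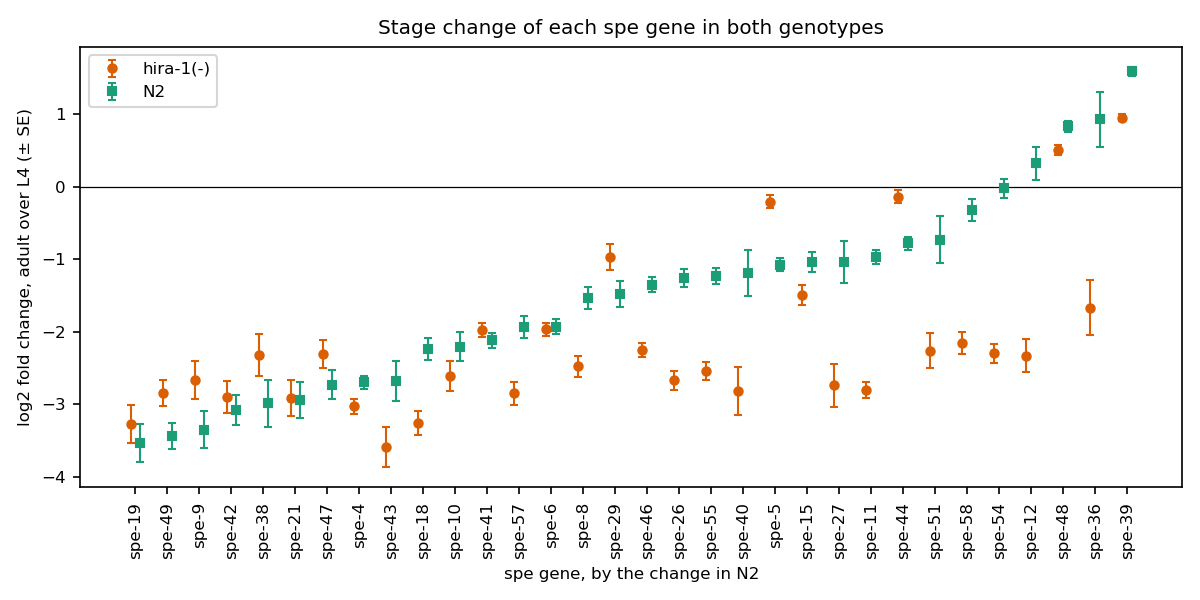
Log2 fold change of adult over L4 for 32 of the 34 spe genes, with its standard error, in hira-1(-) (circles) and N2 (squares), ordered by the value in N2. In hira-1(-) spe-12, spe-36, spe-54 and spe-58 lie between -1.67 and -2.33, and in N2 between -0.32 and 0.93.

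At L4 the spe genes moved in both directions between the genotypes, in shares near those of all tested genes. Of 34, 14 were called higher and 7 lower in hira-1(-), where 35.5% of all tested genes were called higher and 22.6% lower (58% in either direction). The median spe gene differed by 0.04, against 0.10 over all genes tested. The sign of that small median depended on the fit, being -0.08 without N2 L4 replicate 2 and -0.07 without N2 adult replicate 1. Over all tested genes the median was 0.01 and 0.00 in those fits. The libraries lay wholly apart and higher in hira-1(-) for 16 spe genes (46.6% of all genes) and wholly apart and lower for 11 (32.4% of all genes). Of the 21 calls, 12 held when any of the 8 libraries was left out, namely spe-11, spe-12, spe-26, spe-39, spe-51, spe-54, spe-55 and spe-58 as higher and spe-4, spe-41, spe-44 and spe-49 as lower. The count of higher genes was 9 without N2 L4 replicate 1, N2 L4 replicate 2 or hira-1(-) L4 replicate 1, and the count of lower genes was 4 without hira-1(-) L4 replicate 1. Over all tested genes the counts moved with the library left out too. DESeq2 called 8 spe genes higher and 4 lower, where it called 4634 of 17887 genes higher and 2990 lower. With library totals in place of TMM 16 were higher and 4 lower, spe-9, spe-29 and spe-41 no longer being called.

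In adults nearly all called spe genes were lower in hira-1(-). Of 34, 14 were called lower and 1, spe-5, was called higher, where 26.5% of all tested genes were called lower and 28.6% higher (55.1% in either direction). The median spe gene differed by -0.43, against 0.03 over all genes tested. It was -0.23 with library totals, against 0.24 over all genes, and -0.12 with limma on log2 FPKM, against 0.09. The libraries lay wholly apart and lower in hira-1(-) for 22 spe genes (37.8% of all genes) and wholly apart and higher for 2 (41.1% of all genes). Of the 15 calls, 11 held when any library was left out. Without N2 adult replicate 2 a second gene was called higher, spe-47 (log2 ratio 0.73, adjusted p = 0.043).

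The test of the difference between the stages, which is the adult log2 ratio minus the L4 one, called 16 spe genes lower and 2 higher, where 29.7% of all tested genes were called lower and 20.7% higher (50.4% in either direction). Its median over the spe genes was -0.43, against -0.07 over all genes tested. The fitted value was above 0 at L4 and below 0 in adults for 15 spe genes (24.5% of all tested genes), below 0 at both stages for 11 (23.2%), above 0 at both for 3 (32.3%), and below 0 at L4 and above 0 in adults for 5 (19.6%). Called higher at L4 and lower in adults were 9 spe genes, spe-8, spe-11, spe-12, spe-26, spe-36, spe-39, spe-54, spe-55 and spe-58, a pattern of 8.12% of all tested genes. Of these, spe-8, spe-36, spe-39 and spe-58 lost a call at 1 or both stages when a library was left out, with adjusted p up to 0.336 for spe-8, 0.116 for spe-36, 0.0632 for spe-39 and 0.0846 for spe-58. spe-4 was lower at both stages (9.49% of all tested genes), and 8 spe genes were called at neither stage (22.4% of all tested genes), among them spe-6, spe-10, spe-19, spe-21, spe-38, spe-42 and spe-47.

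**Figure D3:**
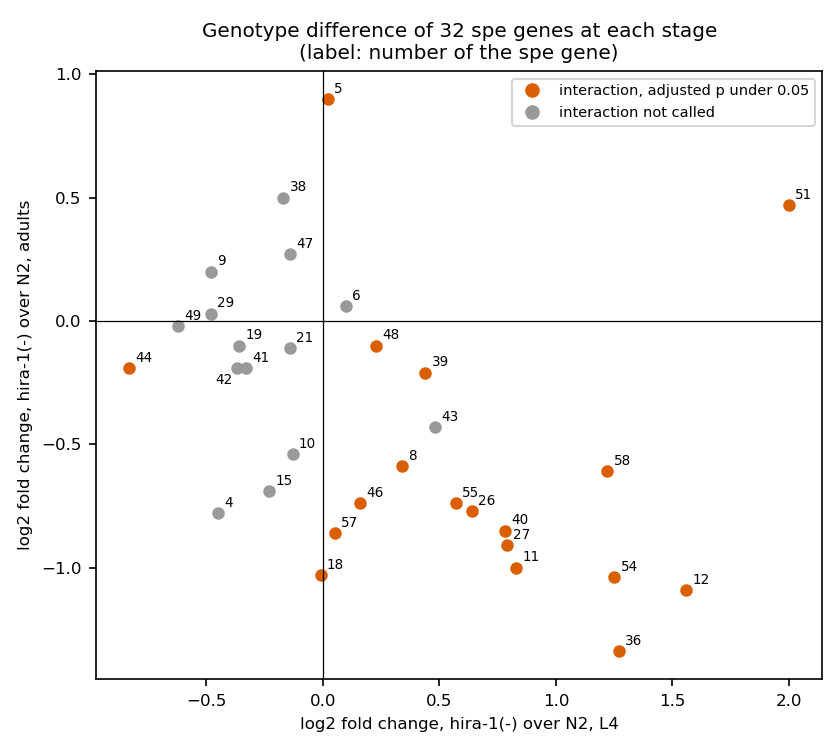
Log2 fold change of hira-1(-) over N2 for 32 of the 34 spe genes at L4 (horizontal) and in adults (vertical), each point marked with the number of its spe gene. Orange points differed between the stages by the interaction test. spe-12 (1.56 at L4, -1.09 in adults) and spe-54 (1.25, -1.04) lie at the lower right, spe-44 (-0.83, -0.19) at the far left and spe-5 (0.02, 0.90) at the top.

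Of 8 genes that act in spermatocytes and have a row in the tables, 2 were higher and 2 lower in hira-1(-) at L4, a split near that of all tested genes (35.5% and 22.6%). In adults 1 was higher and 4 were lower, against 28.6% and 26.5% of all tested genes. They include spe-44, with the lowest fitted value of the 34 spe genes at L4, and spe-5, with the highest in adults. spe-44 encodes a SAND-domain transcription factor that turns on sperm genes in spermatocytes. It had 21.2 and 19.2 CPM in hira-1(-) L4 larvae, against 37.3 and 34.5 CPM in N2 L4 larvae. Its adult levels were 19 and 17.6 CPM in hira-1(-), against 19.8 and 21.9 CPM in N2. In CPM both hira-1(-) libraries lay below both N2 libraries, with a wide gap at L4 (log2 ratio -0.83, SE 0.09, adjusted p = 4.6e-06) and a narrow one in adults (-0.19, SE 0.09, adjusted p = 0.102). In FPKM the adult libraries overlapped, and the adult value was 0.02 with library totals and with limma on log2 FPKM. With RLE scaling spe-44 was called lower in adults (-0.26, adjusted p = 0.0377), and with DESeq2 it was not called (-0.27, adjusted p = 0.0983). The stages differed (0.64, SE 0.13, adjusted p = 0.0012). In hira-1(-), spe-44 was the 1 spe gene not called between adult and L4 (adult over L4 -0.14, adjusted p = 0.181), while in N2 it was lower in adults (-0.78, adjusted p = 2.5e-06).

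spe-18, the fibrous body gene, was not called at L4, where it had 100 and 102 CPM in hira-1(-) and 111 and 92.9 CPM in N2 (log2 ratio -0.01, SE 0.14, adjusted p = 0.936). The adult libraries gave 8.98 and 12.2 CPM in hira-1(-), against 19.2 and 24 CPM in N2. The adult groups lay apart, with hira-1(-) lower (-1.03, SE 0.18, adjusted p = 0.003). spe-15, which encodes a class VI myosin that sorts components away from the budding spermatid, was lower in adults (-0.69, adjusted p = 0.0062) and uncalled at L4 (-0.23, adjusted p = 0.17). Its hira-1(-) L4 libraries still lay below those of N2 in CPM, and its L4 value was -0.53 without N2 L4 replicate 2. The stages were called different for spe-18 (-1.02, adjusted p = 0.0093) but not for spe-15 (-0.45, adjusted p = 0.096). DESeq2 did call the stages of spe-15 different (-0.52, adjusted p = 0.0151).

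spe-5 encodes a B subunit of the vacuolar proton pump, which acidifies organelles. It had 17.6 and 17.1 CPM in hira-1(-) adults, against 9.65 and 8.97 CPM in N2 adults. At L4 it had 19.6 and 20.4 CPM in hira-1(-) and 19.3 and 20.1 CPM in N2. The L4 libraries of the genotypes were interleaved (log2 ratio 0.02, adjusted p = 0.851), and the adult hira-1(-) libraries stood well above those of N2 (0.90, SE 0.10, adjusted p = 5.6e-06). The stages differed (0.88, SE 0.13, adjusted p = 1.1e-04). spe-5 was the 1 spe gene called higher in hira-1(-) adults. Its exon-overlapping neighbour on the opposite strand, the cilium gene ift-20, had 0.26 and 0.188 CPM in hira-1(-) adults and 0.125 and 0.144 CPM in N2 adults. How reads were divided between spe-5 and ift-20 was not tested.

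spe-39 had 44.9 and 43.8 CPM in hira-1(-) L4 larvae, against 31.8 and 33.6 CPM in N2 L4 larvae. In adults it had 88.3 and 82.9 CPM in hira-1(-), against 99.1 and 98.5 CPM in N2. It was higher at L4 (log2 ratio 0.44, SE 0.06, adjusted p = 2.4e-05). The adult call (-0.21, SE 0.05, adjusted p = 0.0048) was lost without hira-1(-) adult replicate 2 (adjusted p = 0.0632), and the adult value was 0.00 with library totals in place of TMM. spe-26, which encodes a Kelch-repeat protein thought to bind actin, had 26.5 and 27 CPM in hira-1(-) L4 larvae, against 18.5 and 15.7 CPM in N2 L4 larvae (0.64, adjusted p = 3.1e-04). Its adult levels were 4.04 and 4.33 CPM in hira-1(-), against 6.26 and 7.93 CPM in N2 (-0.77, adjusted p = 7.9e-04). The genotypes were thus separated in opposite directions at the 2 stages. spe-10, a DHHC-type palmitoyltransferase, was called at neither.

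**Figure D4:**
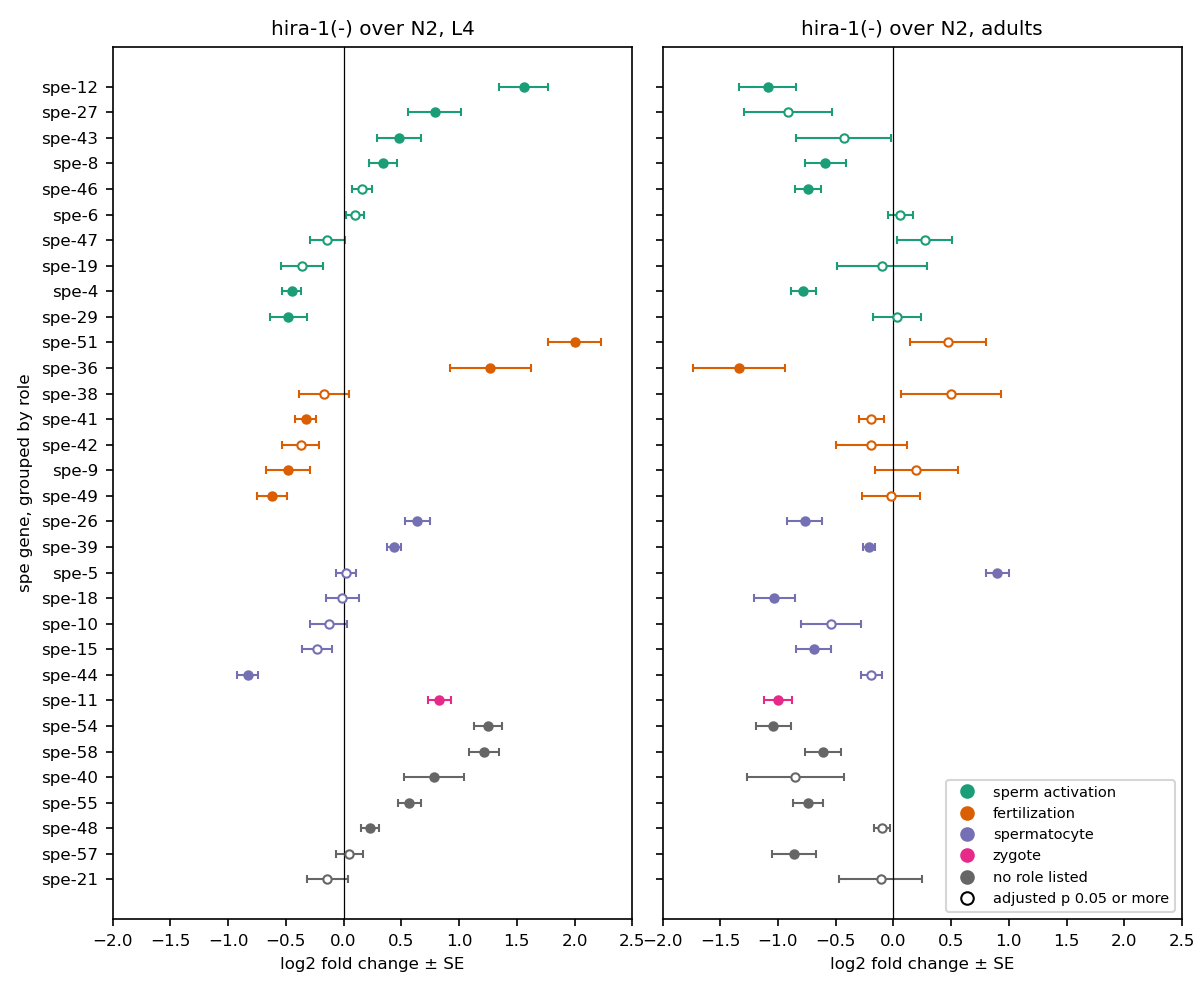
Log2 fold change of hira-1(-) over N2 with its standard error at L4 (left) and in adults (right), 32 of the 34 spe genes grouped by role and ordered by the L4 value. Filled points had an adjusted p under 0.05. At L4 filled points run from -0.83 for spe-44 to 2.00 for spe-51, and in adults spe-5 at 0.90 is the 1 filled point above 0.

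Of 10 sperm activation genes, 4 were higher and 2 lower in hira-1(-) at L4, close to the shares of all tested genes (35.5% and 22.6%). In adults 0 were higher and 4 lower (spe-4, spe-8, spe-12 and spe-46), against 28.6% and 26.5% of all tested genes. The genes of the SPE-8 group act together in the hermaphrodite's own sperm to pass the activation signal inwards from the membrane. Of its 6 members, spe-12 (log2 ratio 1.56), spe-27 (0.79), spe-43 (0.48) and spe-8 (0.34) were higher at L4 and spe-29 was lower (-0.48). spe-19 was at -0.36 (adjusted p = 0.098). The calls of spe-27, spe-43, spe-8 and spe-29 were each lost when at least 1 library was left out, though the direction held. For spe-27 these were N2 L4 replicate 2 (adjusted p = 0.119) and hira-1(-) L4 replicate 1 (0.0844), and for spe-43 each of the 8 libraries (0.0504 to 0.314). For spe-8 they were N2 L4 replicate 1 (0.108), N2 L4 replicate 2 (0.336), hira-1(-) L4 replicate 1 (0.135), hira-1(-) L4 replicate 2 (0.111) and N2 adult replicate 1 (0.12). For spe-29 they were N2 L4 replicate 1 (0.0721), hira-1(-) L4 replicate 1 (0.137) and hira-1(-) L4 replicate 2 (0.0574).

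spe-12 encodes a membrane protein of that group. It had 6.53 and 6.87 CPM in hira-1(-) L4 larvae, against 2.85 and 1.69 CPM in N2 L4 larvae. The adult libraries gave 1.26 and 1.39 CPM in hira-1(-), against 2.59 and 3.05 CPM in N2. The hira-1(-) libraries lay above N2 at L4 (log2 ratio 1.56, SE 0.21, adjusted p = 2.9e-05) and below N2 in adults (-1.09, SE 0.25, adjusted p = 0.0028). The stages differed (-2.65, SE 0.33, adjusted p = 2.3e-05), by an amount close to that of spe-36 (-2.60, SE 0.53). T02E1.9, which overlaps the exons of spe-12 on the opposite strand, had 0 estimated counts in every library used and was not tested. In hira-1(-) spe-12 was lower in adults than at L4 (-2.33, adjusted p = 5.7e-07), and in N2 the stages overlapped (0.32, adjusted p = 0.22). spe-8, a non-receptor tyrosine kinase, had 2.37 and 1.88 CPM in hira-1(-) adults, against 3.42 and 3.01 CPM in N2 adults (-0.59, adjusted p = 0.0129). That call was lost without hira-1(-) adult replicate 2 (adjusted p = 0.11). The call of spe-29 at L4 moved in the same direction as gon-1, which overlaps its exons on the opposite strand (log2 ratio of gon-1 -0.36, adjusted p = 4.0e-04). The part of gon-1 reads in it was not tested.

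Genes that hold activation back until its time were measured too. spe-6 encodes a kinase of the casein kinase 1 family. It had 30.1 and 30.6 CPM in hira-1(-) L4 larvae and 28.9 and 28 CPM in N2 L4 larvae (log2 ratio 0.10, SE 0.08, adjusted p = 0.354). In adults it had 7.34 and 8.14 CPM in hira-1(-) and 7.77 and 7.14 CPM in N2 (0.06, SE 0.11, adjusted p = 0.672). With library totals spe-6 was called higher at both stages (0.23 at L4, 0.26 in adults). spe-4, a presenilin-family membrane protein of the organelles, had 32.4 and 31.6 CPM in hira-1(-) L4 larvae, against 44.6 and 42.9 CPM in N2 L4 larvae. Its adult levels were 3.67 and 4.15 CPM in hira-1(-), against 6.64 and 6.82 CPM in N2. The hira-1(-) libraries were lower at L4 (-0.45, SE 0.08, adjusted p = 2.5e-04) and in adults (-0.78, SE 0.11, adjusted p = 8.1e-05), and the stages were not called different (-0.33, SE 0.14, adjusted p = 0.0602). spe-47, a protein with an MSP domain, was uncalled at L4 (-0.14, adjusted p = 0.455) and in adults (0.27, adjusted p = 0.355). spe-46, required for sperm formation and activation, was at 0.16 at L4 (adjusted p = 0.148) and lower in adults (-0.74, adjusted p = 1.0e-04).

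Of 8 fertilization genes with a row in the tables, 2 were higher and 3 lower in hira-1(-) at L4, against 35.5% and 22.6% of all tested genes. Their L4 median was -0.25, against 0.10 over all tested genes. In adults 0 were higher and 1 was lower, against 28.6% and 26.5% of all tested genes. The genes called higher, spe-51 and spe-36, encode secreted proteins, with an immunoglobulin-like fold and an EGF motif. The genes called lower, spe-9, spe-41 and spe-49, encode membrane proteins. That grouping by protein type was made after the values were known and has no test.

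spe-51 had 3.65 and 4.1 CPM in hira-1(-) L4 larvae, against 1.01 and 0.919 CPM in N2 L4 larvae, which rest on 108 and 124 estimated counts and 28 and 25. The groups lay far apart (log2 ratio 2.00, SE 0.23, adjusted p = 8.6e-06), the highest fitted L4 value among the 34 spe genes. The adult libraries gave 0.705 and 0.905 CPM in hira-1(-) and 0.71 and 0.466 CPM in N2, and the groups overlapped (0.47, SE 0.33, adjusted p = 0.249). spe-36 had 1.39 and 1.26 CPM in hira-1(-) L4 larvae, against 0.504 and 0.588 CPM in N2 L4 larvae (1.27, SE 0.35, adjusted p = 0.0079). In adults it had 0.593 and 0.226 CPM in hira-1(-), against 1.13 and 0.969 CPM in N2 (-1.34, SE 0.40, adjusted p = 0.0124). The groups did not overlap at either stage, and the direction turned between them (-2.60, SE 0.53, adjusted p = 0.0013). DESeq2 called spe-36 at neither stage (adjusted p = 0.0759 at L4 and 0.054 in adults), but it did call the difference between stages (-2.69, adjusted p = 0.0062). The L4 call of spe-36 was lost without N2 L4 replicate 1 (adjusted p = 0.0562) and the adult call without hira-1(-) adult replicate 2 (0.116). Without hira-1(-) adult replicate 1 its adult value was -2.19 and its difference between stages -3.45. F12F6.1 and F40F11.3, which overlap its exons, were also higher at L4 (0.67 and 0.48), and their part in its L4 value was not tested.

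spe-9 encodes a membrane protein with EGF repeats. It had 4.91 and 7 CPM in hira-1(-) L4 larvae, against 9.29 and 7.35 CPM in N2 L4 larvae. Its adult levels were 0.779 and 1.09 CPM in hira-1(-) and 0.919 and 0.718 CPM in N2. The L4 groups were separated by a narrow gap (log2 ratio -0.48, SE 0.19, adjusted p = 0.0422) and the adult groups overlapped (0.20, SE 0.36, adjusted p = 0.654). The L4 call was lost without N2 L4 replicate 1 (adjusted p = 0.0922), hira-1(-) L4 replicate 1 (0.367) or N2 adult replicate 2 (0.0522). spe-49, a DC-STAMP-type membrane protein, had 7.92 and 6.9 CPM in hira-1(-) L4 larvae, against 11.5 and 11.2 CPM in N2 L4 larvae (-0.62, SE 0.13, adjusted p = 0.0014). The adult libraries gave 0.964 and 1.09 CPM in hira-1(-) and 0.919 and 1.15 CPM in N2 (-0.02, SE 0.25, adjusted p = 0.962). spe-49 thus lay apart at L4 and overlapped in adults, and the test of the difference between stages did not call it (0.60, SE 0.28, adjusted p = 0.0959). spe-41, a TRPC-type calcium channel, was lower at L4 (-0.33, adjusted p = 0.0051). spe-42 (-0.37, adjusted p = 0.0614) and spe-38 (-0.17, adjusted p = 0.534) were not called.

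spe-11 is supplied by sperm and acts in the zygote. It had 50.5 and 49.5 CPM in hira-1(-) L4 larvae, against 31.3 and 25.1 CPM in N2 L4 larvae. In adults it had 6.82 and 7.58 CPM in hira-1(-), against 14 and 14.8 CPM in N2. The hira-1(-) libraries lay above N2 at L4 (log2 ratio 0.83, SE 0.10, adjusted p = 9.1e-06) and below N2 in adults, where spe-11 fell by 1.00 on the log2 scale (SE 0.12, adjusted p = 1.5e-05). The stages differed (-1.83, SE 0.15, adjusted p = 7.5e-07). Adult over L4 was -2.80 in hira-1(-) and -0.97 in N2.

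For 7 spe genes no role is given here (spe-21, spe-40, spe-48, spe-54, spe-55, spe-57 and spe-58). Of these, 5 were higher and 0 lower in hira-1(-) at L4 (35.5% and 22.6% of all tested genes), and 0 were higher and 4 lower in adults (28.6% and 26.5% of all tested genes). spe-54 had 19.7 and 18.8 CPM in hira-1(-) L4 larvae, against 9.08 and 7.13 CPM in N2 L4 larvae. Its adult levels were 3.67 and 4.11 CPM in hira-1(-), against 8.02 and 7.97 CPM in N2. Its libraries lay above N2 at L4 (log2 ratio 1.25, SE 0.12, adjusted p = 1.9e-06) and below N2 in adults (-1.04, SE 0.15, adjusted p = 6.2e-05), and the stages differed (-2.28, SE 0.19, adjusted p = 7.0e-07).

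spe-58 had 20.3 and 20.4 CPM in hira-1(-) L4 larvae, against 9.4 and 8.05 CPM in N2 L4 larvae (log2 ratio 1.22, SE 0.13, adjusted p = 5.2e-06). The adult libraries gave 4.04 and 5.09 CPM in hira-1(-), against 6.1 and 7.82 CPM in N2 (-0.61, SE 0.16, adjusted p = 0.0056). The groups were far apart at L4 and close together in adults, without overlap at either stage. The adult call was lost without N2 adult replicate 2 (adjusted p = 0.0846) or hira-1(-) adult replicate 1 (0.0678). spe-55 was higher at L4 (0.57, adjusted p = 4.0e-04) and lower in adults (-0.74, adjusted p = 4.2e-04), and spe-57 was uncalled at L4 (0.05, adjusted p = 0.735) and lower in adults (-0.86, adjusted p = 0.002). The L4 calls of spe-40 (0.78, adjusted p = 0.0197) and spe-48 (0.23, adjusted p = 0.0223) were lost when some libraries were left out. For spe-40 these were N2 L4 replicate 1 (adjusted p = 0.0742), N2 L4 replicate 2 (0.0836) and hira-1(-) L4 replicate 1 (0.22). For spe-48 they were N2 L4 replicate 1 (0.715), N2 L4 replicate 2 (0.114), hira-1(-) L4 replicate 1 (0.0693), hira-1(-) L4 replicate 2 (0.102) and N2 adult replicate 1 (0.232). spe-21 was called at neither stage.

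The L4 calls between genotypes were also counted by the stage course of each spe gene in N2. At L4, 35.5% of all tested genes were called higher in hira-1(-) and 22.6% lower. Of the 14 spe genes whose adult over L4 value in N2 was below -2 (log2), 1 was higher and 5 were lower in hira-1(-) at L4, with a median of -0.25. Of the 16 with a milder fall in N2, 9 were higher and 2 lower, with a median of 0.45. All 4 whose fitted level was higher in N2 adults than at L4 (spe-12, spe-36, spe-39 and spe-48) were called higher at L4. Of these, spe-12 was not called between the stages in N2 (0.32, adjusted p = 0.22). The N2 stage call of spe-36 and the L4 calls of spe-36 and spe-48 were lost when some libraries were left out. Both comparisons use the N2 L4 libraries and the classes were drawn after the values were known, so these counts are a description with no test. All tested genes were not divided into such classes, so whether the counts are particular to the spe genes is not known.

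Other genes of sperm function were counted in the same way. Over all tested genes, 35.5% were called higher and 22.6% lower at L4, and 28.6% higher and 26.5% lower in adults. Of 43 tested genes of a list of sperm proteins, sperm chromatin and sperm small-RNA genes, 30 were higher and 3 lower in hira-1(-) at L4, with a median of 0.88. Of these 43, 2 were higher and 35 lower in adults, with a median of -1.12. The L4 median was 0.84 when msd-1 and ssp-37, which had 0 counts in both N2 L4 libraries, were set at a floor of 3 counts per library. Of 29 tested major sperm protein genes, whose product moves sperm and signals to oocytes, 28 were higher at L4 and 28 lower in adults. The members of that family are nearly identical and the counting may have divided reads among them. Set over the separate sum of the major sperm protein genes, the summed FPKM of the spe genes came to 8.74% and 8.66% in hira-1(-) L4 libraries, against 15.9% and 16.3% in N2 L4 libraries. In adults it was 14.1% and 13.4% in hira-1(-), against 5.12% and 4.94% in N2. The genotypes thus stood in opposite order at the 2 stages. In adults spe-39, used in many tissues, and spe-48 gave 46 and 29.2 of the mean spe sum of 175 FPKM in hira-1(-). In N2 adults they gave 45.9 and 27 of 195 FPKM.

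In the sperm list, msd-4 (1.11 at L4, -1.51 in adults), ssp-10 (1.54, -1.35) and msd-2 (1.60, -1.68) were higher at L4 and lower in adults. smz-2 was higher at both stages (1.36, 0.37), while ssq-3 was uncalled at L4 (-0.01, adjusted p = 0.924) and lower in adults (-2.45). msd-1 had 544 and 616 estimated counts in hira-1(-) L4 larvae and 0 in both N2 L4 libraries. In these estimated counts it was at least 177-fold higher against a floor of 3 counts per library. How the counting divided reads between msd-1 and the other msd genes was not tested.

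The 3 genes of that list called lower at L4 were fer-1, alg-4 and cpb-2. fer-1 encodes a ferlin that fuses the sperm's organelles with its surface. It had 22.4 and 23.1 CPM in hira-1(-) L4 larvae, against 40.4 and 43.1 CPM in N2 L4 larvae (log2 ratio -0.88, SE 0.10, adjusted p = 1.1e-05). In adults it had 2.93 and 3.54 CPM in hira-1(-) and 2.76 and 3.8 CPM in N2, with overlapping groups (-0.03, adjusted p = 0.888). The Argonaute gene alg-4, of the small-RNA pathway of spermatogenesis, was lower at L4 (-0.47, adjusted p = 0.0023) and in adults (-1.12, adjusted p = 1.1e-04). Its paralog alg-3 was at -0.15 at L4 (adjusted p = 0.117) and was lower in adults (-0.95, adjusted p = 1.1e-05). The paralogs may share reads. The sperm chromatin genes spch-1, spch-2 and spch-3 were lower in adults by -0.89, -0.94 and -1.14. At L4 spch-3 was called (0.35, adjusted p = 0.0284, lost without N2 L4 replicate 2 with 0.327, hira-1(-) L4 replicate 1 with 0.0556, hira-1(-) L4 replicate 2 with 0.126 or N2 adult replicate 1 with 0.0974), and spch-1 (0.27, adjusted p = 0.081) and spch-2 (0.01, adjusted p = 0.931) were not. Without N2 L4 replicate 2 spch-2 was called lower (-0.23, adjusted p = 0.0408).

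Genes that set the sexual fate of germ cells were measured beside them. Of 27 tested, 19 were higher and 2 lower in hira-1(-) at L4, and 3 were higher and 11 lower in adults. The shares of all tested genes called higher and lower were 35.5% and 22.6% at L4 and 28.6% and 26.5% in adults. fog-3 and fog-1 are both required for germ cells to become sperm. fog-3 had 3.18 and 2.84 CPM in hira-1(-) L4 larvae, against 9 and 10.7 CPM in N2 L4 larvae, a wide separation (log2 ratio -1.71, SE 0.16, adjusted p = 1.4e-06). fog-1 went the other way, with 12.2 and 12.8 CPM in hira-1(-) L4 larvae, against 7.42 and 7.46 CPM in N2 L4 larvae (0.75, SE 0.10, adjusted p = 4.6e-05). In adults fog-3 was at -0.30 (adjusted p = 0.323), and the adult call of fog-1 (0.27, adjusted p = 0.0247) was lost without N2 adult replicate 1 (0.239) or hira-1(-) adult replicate 1 (0.208). The GATA factor gene elt-1, which also acts in the epidermis, was counted in the sperm list above and not among these 27. It was at 0.22 at L4 (adjusted p = 0.156) and 0.25 in adults (adjusted p = 0.125).

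**Figure D5:**
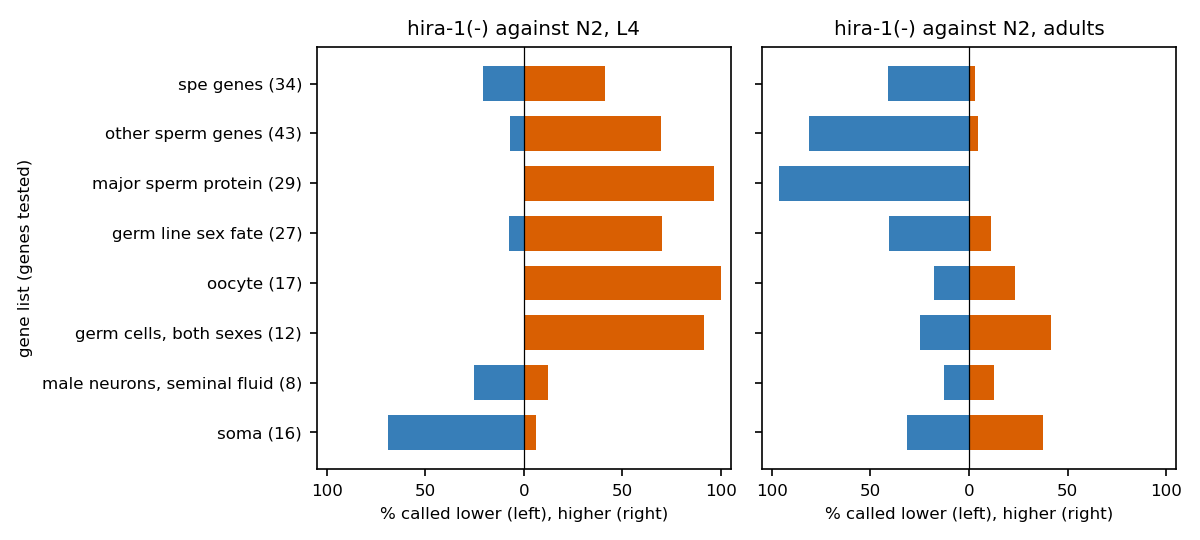
Percent of the tested genes of each list called higher (right of 0) or lower (left of 0) in hira-1(-) against N2 at L4 and in adults, with the number of genes tested. The spe genes stand at 14 higher and 7 lower of 34 at L4 and 1 higher and 14 lower in adults, and the major sperm protein genes at 28 higher of 29 at L4 and 28 lower in adults. All tested genes, which are not drawn, stood at 35.5% higher and 22.6% lower at L4, and 28.6% and 26.5% in adults.

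Markers of other cells were counted as well. Beside these counts, 35.5% of all tested genes were called higher and 22.6% lower at L4, and 28.6% and 26.5% in adults. All 17 oocyte genes were called higher in hira-1(-) at L4, with summed levels of 1092 and 1108 FPKM in hira-1(-) and 271 and 227 FPKM in N2. In adults 4 were higher and 3 lower, with sums of 5560 and 5507 FPKM in hira-1(-) and 4501 and 4714 FPKM in N2. Of 12 germ line genes used in both sexes, 11 were higher and 0 lower at L4, with sums of 1210 and 1232 FPKM in hira-1(-) and 768 and 750 FPKM in N2. In adults 5 were higher and 3 lower, with sums of 1341 and 1407 FPKM in hira-1(-) and 1099 and 1181 FPKM in N2. Of 16 somatic genes, 1 was higher and 11 lower at L4, with sums of 5808 and 6129 FPKM in hira-1(-) and 8391 and 7904 FPKM in N2. In adults 6 were higher and 5 lower, with sums of 3929 and 4087 FPKM in hira-1(-) and 5074 and 4742 FPKM in N2. In adults the gene by gene medians, with TMM, were -0.04 for the oocyte genes, 0.14 for the germ line genes and 0.25 for the somatic genes, against 0.03 over all genes tested. For the oocyte and somatic lists the adult sums, which are in FPKM without TMM, stood in the other order from these medians.

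Genes of male neurons and seminal fluid summed to 29.3 and 28.3 FPKM in hira-1(-) L4 larvae and 44.5 and 53.4 FPKM in N2 L4 larvae over 12 genes, and to 26.6 and 26.5 FPKM in hira-1(-) adults and 27 and 30.4 FPKM in N2 adults. Of the 8 tested, 1 was higher and 2 lower at L4 (35.5% and 22.6% of all tested genes) and 1 was higher and 1 lower in adults (28.6% and 26.5%). cwp-3 was at 0 in both hira-1(-) L4 libraries. The spe genes themselves summed to 538 and 542 FPKM in hira-1(-) L4 larvae and 458 and 415 FPKM in N2 L4 larvae, and to 175 and 176 FPKM in hira-1(-) adults and 189 and 202 FPKM in N2 adults. The part of these marker differences in the spe gene results was not tested.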

How the data were processed

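Per the labels' protocols, RNA of N2 and hira-1(-) nematodes was enriched for poly(A) tails and read from both ends on an Illumina NextSeq. The authors deposited 2 gene tables: estimated counts (expected counts that need not be whole, 79.3% of them whole numbers) and FPKM on a log2 scale after adding 1. Per the submitters' processing notes, Bowtie 1.0.1, RSEM 1.2.15, SAMtools 0.1.19 and build ce10 were used. Of 18 columns, 8 match the labels of 1 sample each (1 of them with a digit in place of a letter) and the other 10 were not used. The tables hold sequence names, and 44080 of 45461 rows were matched to gene names of WBcel235, so no coordinates are given.

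The expected counts were rounded, then fitted over all genes with edgeR 4.0.16 (R 4.3.3). Libraries were scaled by TMM and genes filtered by expression (minimum count 10, total 15). The fit had 4 group means, robust quasi-likelihood dispersion and 4 residual degrees of freedom, and its two-sided p-values were adjusted by Benjamini-Hochberg (threshold 0.05). The biological coefficient of variation was 6.26%. The spread between libraries of one group exceeded that of counting (chi-square over its degrees of freedom 5.76 to 19.2), and depth limits genes with few adult counts. FPKM was taken as 2 to the deposited log2 value, minus 1. The code of the fit was tried on simulated counts in which few genes changed, evenly up and down. Such counts do not test the scaling of these libraries.

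Values per library are given for the 4 called spe genes per direction with the largest change, non-overlapping libraries and at least 5 CPM in the higher group, in each genotype comparison and the interaction, and for spe-44, spe-6, spe-9, spe-11 and spe-39. spe-26, spe-36, spe-51 and spe-8 were added after their values were seen. From the other lists the rule took fer-1, fog-1, fog-3, elt-1, alg-3, alg-4, the spch genes and up to 4 called genes per direction with the smallest adjusted p, not all of which are printed. msd-1, ssp-37 and cwp-3 are named for being at 0. The members, the gene lists and their roles were chosen with earlier results of these data known. spe-7, spe-13 and spe-50, which are on the role lists, have no row under those names in the tables used here. The alternatives were DESeq2 1.42.0, limma 3.58.1 on the deposited log2 FPKM, RLE scaling, scaling by library totals, no filter, a fit of only the compared groups, a replicate block, and each library left out in turn. All counts and medians cover the 34 spe genes, but single values of 2 of them are not reported here.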

Additional observations from a re-analysis of the deposited data

Results flagged for a closer look

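The genotype difference of 18 spe genes differed between adults and L4 by the interaction test of edgeR's quasi-likelihood fit with Benjamini-Hochberg adjustment (adjusted p under 0.05), where 50.4% of all tested genes did so in either direction. The values are the adult log2 fold change of hira-1(-) over N2 minus the L4 one. For spe-5 it was 0.88 and for spe-44 0.64. Below 0 were the activation genes spe-12 (-2.65), spe-27 (-1.70), spe-8 (-0.93) and spe-46 (-0.90), the secreted fertilization genes spe-36 (-2.60) and spe-51 (-1.54), and the spermatocyte genes spe-26 (-1.41), spe-18 (-1.02) and spe-39 (-0.65). So were spe-11 (-1.83) and the genes with no role given here, spe-54 (-2.28), spe-58 (-1.84), spe-40 (-1.63), spe-55 (-1.31), spe-57 (-0.91) and spe-48 (-0.32). The call of spe-40 was lost without hira-1(-) L4 replicate 1 (adjusted p = 0.0534) or N2 adult replicate 2 (0.198), and that of spe-51 without N2 adult replicate 1 (0.0758). The call of spe-48 was lost without any 1 library other than N2 L4 replicate 2 and hira-1(-) adult replicate 1, with adjusted p from 0.0519 to 0.252. Without hira-1(-) adult replicate 1 the value of spe-36 was -3.45.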

How the results depend on the processing

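The L4 counts moved with the scaling, the tool and the library left out. Of 14 higher and 7 lower spe genes in hira-1(-) at L4, DESeq2 called 8 and 4, library totals 16 and 4, and limma on log2 FPKM 16 and 3. Over all genes at L4, DESeq2 called 4634 higher and 2990 lower of 17887, and limma 7099 and 2627 of 23581. Leaving out 1 library gave 9 to 13 higher and 4 to 9 lower. In adults the 1 higher became 2 with library totals and with limma, and 1 to 2 with 1 library left out. The other counts of calls in these and the stage comparisons stayed within 1.5 times under each alternative. Library totals shifted the median over all tested genes to 0.24 at both stages (0.10 at L4 and 0.03 in adults with TMM), with 7353 higher and 2819 lower at L4, against 5951 and 3782 with TMM, and 7198 and 2320 in adults, against 4790 and 4445. The median spe gene at L4 was -0.06 with only the groups compared, -0.08 without N2 L4 replicate 2 and -0.07 without N2 adult replicate 1. Over all tested genes those medians were -0.01, 0.01 and 0.00. Over the fits that leave out 1 library the L4 median of the spe genes had a range of -0.08 to 0.06. The adult median was between -0.52 (DESeq2) and -0.12 (limma). spe-39 in adults was at 0.00 with library totals and with limma. spch-2 at L4 was at -0.23 without N2 L4 replicate 2 and between -0.23 and 0.05 over those fits. The cause of these changes was not tested. Between groups, libraries of the same replicate number were barely correlated in their deviations from the group means (-0.00288 to 0.0661). That does not settle whether such libraries were prepared together. With the replicate block 14 spe genes were higher and 7 lower at L4, and 1 and 14 in adults. The interaction already uses all groups, so it has no fit with only the groups compared. Depth limits the 11 spe genes with under 30 counts in every adult library.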
